A study of Mus musculus with 4 samples.

Results

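A set of 9 genes, reported as markers of radial glia-like stem cells or leading the nestin-rich astrocyte-like wells of this experiment, was followed: Hopx, Thrsp, Fabp7, Lpar1, Tnc, Frzb, Itih3, Tspan18 and Ass1. They are 9 of the 31557 gene symbols in the deposited count table, and all 9 had counts. They were read in wells with 500 to 6000 detected genes, where a gene is detected when it has at least 1 count. Since the genes were chosen partly because they lead such wells, their levels across wells and cell classes are a description, and tests are given only for the comparison of treatments.

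The study asked what depletion of the microRNA miR-132 does to nestin-positive cells of the adult dentate gyrus niche. The antagomir group was 4 male nestin-GFP mice (mice 2, 4, 6 and 8) that received, in the cerebral ventricle, 2 µl of an LNA- and cholesterol-modified oligonucleotide against miR-132 at 0.33 nmol/ml. The scrambled group was 4 male nestin-GFP mice (mice 1, 3, 5 and 7) that received a scrambled LNA oligonucleotide in artificial cerebrospinal fluid, at a dose that the sources used here do not give. Antagomir was given at 2 months of age and the mice were analysed at 3 months. All 8 mice carry the reporter, in which GFP is driven by nestin regulatory sequence, so the GFP gate also admits other cells in which that sequence is active. GFP-positive cells of 1 whole dentate gyrus per mouse were plated at 96 per mouse and profiled by Smart-seq2, a plate-based method that reads polyadenylated RNA of single cells.

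Of 768 wells, 716 were kept, 353 from antagomir mice and 363 from scrambled mice. Under the lower limit 6 of 36 wells held any of the 9 genes, and of the 36 kept wells with the fewest genes 17 did; the 16 wells over the upper limit held a median of 8 members and the 16 kept wells with the most genes a median of 2. Kept wells held a median of 650777 counts (4118 to 1640971) and 2778.5 detected genes. Sort day and pool were balanced, with 1 mouse of each treatment in every combination. Pool here is the L5 or L6 in each well's entry under the header Project, which does not say what it stands for. Wells were grouped by clustering without the 9 genes. By their markers, 302 wells were oligodendrocyte-like, 168 astrocyte-like, 87 endothelial-like, 82 mural-like, 25 neuroblast-like, 12 fibroblast-like and 5 oligodendrocyte precursor-like. One cluster of 35 wells was led by Dtl, Frzb, Tfap2c, Snhg4, Emx1, Cenpm, Gins2, Tnc, Eomes and 1500015O10Rik. Of the astrocyte or radial glia markers, 14 of 15 were present in at least 25% of its wells. The same held for 4 of 11 neuroblast markers and 1 of 8 markers of cycling cells. The naming step still picked the list of cycling cells as its candidate. With 1 marker of that list present, the cluster was left unnamed. It is called the Tfap2c and Emx1 cluster, although many of its wells lacked these genes, as given below. Counts of Nes, the gene whose regulatory sequence drives the reporter, were present in 65.8% of the 716 wells.

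In the adult dentate gyrus, radial glia-like cells are neural stem cells that share most of their transcripts with astrocytes and give rise to intermediate progenitors, neuroblasts and granule neurons. Their quiescent state is associated with lipid metabolism, Notch and BMP signalling and low Wnt activity. MicroRNAs lower the level or translation of messenger RNAs that carry a match to the seed, bases 2 to 8 of the microRNA. An antagomir is an antisense oligonucleotide that binds the microRNA and relieves that repression.

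The targeted microRNA and its cluster neighbour miR-212 are shown because they share 1 seed, in capitals, and the Frzb site is shown because Frzb was the only one of the 9 genes whose annotated 3′ UTR matched it, with the matched letters in capitals. The mature sequences come from RefSeq (GRCm38.p6) and lie on the plus strand of chromosome 11, miR-132-3p at chr11:75173723-75173744. The Frzb site lies at chr2:80413127-80413153 on the minus strand (GRCm38).
mmu-miR-132-3p: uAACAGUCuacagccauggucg
mmu-miR-212-3p: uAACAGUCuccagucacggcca
Frzb 3′ UTR site: atcacgtgggGACTGTTcttttgcaac
The letters GACTGTT, the complement of that seed, occurred in the 3′ UTR of 2052 of 17465 annotated genes (11.7%). A match is a description of the sequence and not a measured site. The mature microRNA was not measured, because only polyadenylated RNA was copied.

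Promoter windows of 250 bases before the RefSeq gene start (GRCm38.p6) were found for 8 of the 9 genes, all but Tspan18. By the GRCm38 gene models, which start elsewhere, the windows of Thrsp, Fabp7, Lpar1, Frzb, Itih3 and Ass1 run into the gene, while the Hopx and Tnc windows printed below lie outside it. All windows were searched on both strands for the RBPJ motif TGGGAA and the NFI recognition motif TTGGCA, and no 2 matches overlapped. RBPJ is the DNA-binding factor of the Notch pathway, and NFI factors act in astrocyte genes. RBPJ letters were found for 3 of the 8 genes (Fabp7, Tnc and Frzb) in 4 of the 12 windows searched, against 21.6% of 32851 promoters. The NFI motif was found for Thrsp and Tnc, against 12.3% of promoters. The Tnc window at chr4:64047016-64047265 and the Hopx window at chr5:77115124-77115373, both on the minus strand, are shown because these genes were detected together in astrocyte-like wells, as described below. Capitals mark the match to the RBPJ motif in the Tnc window, and the Hopx window holds no match.
Tnc promoter window: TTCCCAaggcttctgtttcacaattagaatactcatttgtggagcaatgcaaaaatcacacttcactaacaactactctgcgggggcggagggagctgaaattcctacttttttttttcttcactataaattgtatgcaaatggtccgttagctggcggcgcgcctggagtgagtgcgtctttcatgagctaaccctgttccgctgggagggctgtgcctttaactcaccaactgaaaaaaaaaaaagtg
Hopx promoter window: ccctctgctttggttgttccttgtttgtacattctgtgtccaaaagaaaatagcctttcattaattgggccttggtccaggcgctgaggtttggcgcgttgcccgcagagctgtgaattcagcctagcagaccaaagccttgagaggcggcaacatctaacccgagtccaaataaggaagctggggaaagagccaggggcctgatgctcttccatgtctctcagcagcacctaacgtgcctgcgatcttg

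The 9 genes did not share 1 distribution over the cell classes. Hopx, Thrsp, Fabp7, Itih3, Tnc, Tspan18 and Ass1 had their highest shares of wells among the classes of 10 or more wells in the Tfap2c and Emx1 cluster, with the astrocyte-like class second. Frzb was also highest in that cluster but was nearly missing from astrocyte-like wells. Lpar1 was most frequent in oligodendrocyte-like wells. For Lpar1 the name radial glia-like stem cell gene therefore did not describe where most of its wells were. In what follows the share is the percentage of wells with at least 1 count, and CPM is counts per 1000000 counts over the summed wells of a class.

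**Figure D1:**
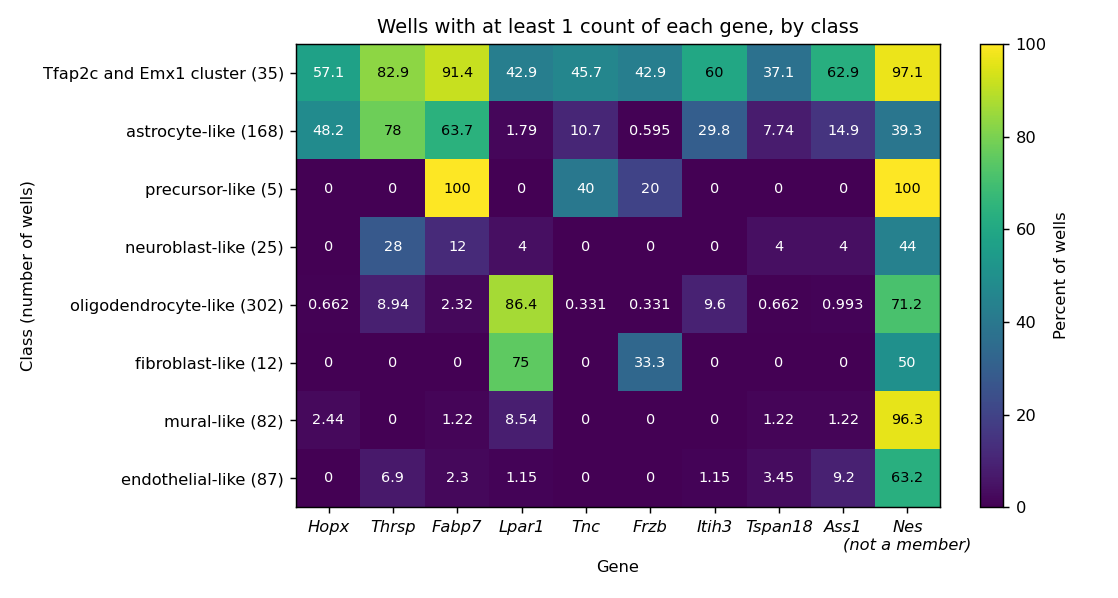
Percentage of wells with at least 1 count of each of the 9 genes, and of Nes for comparison, in the 8 groups of wells; rows are classes with their number of wells and columns are genes. Lpar1 stands at 86.4% in oligodendrocyte-like wells, while Thrsp and Fabp7 stand at 82.9% and 91.4% in the Tfap2c and Emx1 cluster.

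Hopx encodes an atypical homeodomain protein that does not bind DNA itself, and it marks quiescent stem cells in several tissues. It had counts in 57.1% of the 35 wells of the Tfap2c and Emx1 cluster (Wilson 95% interval 40.9 to 72.0%) and in 48.2% of the 168 astrocyte-like wells (40.8 to 55.7%). These intervals pool the wells of all mice and leave out the spread between mice. Over the 8 mice the share ran from 0 to 100% in the cluster and from 27.8 to 68.8% in astrocyte-like wells. Its summed level was 58.2 CPM in the cluster and 40.5 CPM in astrocyte-like wells. Hopx counts were rare elsewhere, in 2 of 302 oligodendrocyte-like wells, 2 of 82 mural-like wells and 0 of 87 endothelial-like wells, where a count of 0 allows up to 3 wells, or a share of 3.45%. Hopxos lies on the opposite strand of Hopx (chr5:77086988-77115121, minus strand). Its counts were found in 11 wells, all with Hopx counts, and without a stated strand setting the reads of the pair cannot be told apart.

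Thrsp encodes a nuclear protein linked to the induction of lipogenic enzymes, and Fabp7 encodes the brain fatty acid binding protein of radial glia. Thrsp was the most abundant member, with counts in 82.9% of wells and 2428 CPM in the Tfap2c and Emx1 cluster, against 78.0% and 1244 CPM in astrocyte-like wells. It was also present in 28% of neuroblast-like wells and 8.94% of oligodendrocyte-like wells. Fabp7 had counts in 91.4% of wells and 832 CPM in the cluster, against 63.7% and 424 CPM in astrocyte-like wells. All 5 oligodendrocyte precursor-like wells had Fabp7 counts. Fabp7 was present in 2.32% of the more numerous oligodendrocyte-like wells.

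Lpar1 encodes a receptor for lysophosphatidic acid, and a reporter for it marks dentate stem and progenitor cells in mice. It had counts in 42.9% of wells of the Tfap2c and Emx1 cluster, against 1.79% of astrocyte-like wells (3 of 168) and 86.4% of oligodendrocyte-like wells. The summed levels were 95.6 CPM in the cluster, 0.0652 CPM in astrocyte-like wells and 398 CPM in oligodendrocyte-like wells. The 3 astrocyte-like wells held few counts, since 0 of the 168 wells reached 10 counts. Lpar1 was also found in 9 of 12 fibroblast-like wells. Among the 297 Lpar1-positive wells of the whole set, 261 were oligodendrocyte-like.

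Tnc encodes the extracellular matrix protein tenascin C, and Frzb encodes a secreted Wnt antagonist. Tnc had counts in 45.7% of wells of the Tfap2c and Emx1 cluster and 10.7% of astrocyte-like wells, with 131 CPM and 16.2 CPM. The antisense gene 8030451A03Rik overlaps Tnc and had counts in 4 wells, 2 of them with Tnc. Frzb had counts in 15 of 35 wells of the cluster (42.9%) and in 1 of 168 astrocyte-like wells (0.595%), with 184 CPM and 0.793 CPM. Outside these wells Frzb was found in 4 of 12 fibroblast-like wells, 1 of 5 precursor-like wells and 1 of 302 oligodendrocyte-like wells. By shares, Frzb differed between the cluster and the astrocyte-like class more than Hopx, Thrsp or Fabp7 did.

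Itih3 encodes a heavy chain of the inter-alpha-trypsin inhibitors that bind hyaluronan, Tspan18 a tetraspanin of the cell surface, and Ass1 argininosuccinate synthase, an enzyme of arginine synthesis. Itih3 had counts in 60% of wells of the Tfap2c and Emx1 cluster and 29.8% of astrocyte-like wells, and in 9.6% of oligodendrocyte-like wells. Its levels were 481 CPM in the cluster and 134 CPM in astrocyte-like wells. Tspan18 had counts in 37.1% of wells of the cluster and 7.74% of astrocyte-like wells, with 216 CPM and 24.5 CPM. Ass1 had counts in 62.9% and 14.9% of these wells, with 138 CPM and 20.8 CPM, and was also found in 8 of 87 endothelial-like wells. The processed pseudogene Gm5424 matches Ass1 over 1240 of its 1696 transcript bases at 99.5% identity. Gm5424 had 46 counts in astrocyte-like wells, against 1915 of Ass1, and no astrocyte-like well had Gm5424 without Ass1. Reads shared by the pair may have been split or dropped in the authors' counting, so the Ass1 level is uncertain to that extent.

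All 9 genes had a higher share of wells in the Tfap2c and Emx1 cluster than in the astrocyte-like class, by a median of 30.2 percentage points (4.88 to 48.0). Over the 24236 genes with counts in either group, 60.3% had a higher share in the cluster and the median difference was 2.26 points. The choice of genes used these wells, so the figures describe the set. The cluster's wells had a median of 3636 detected genes, against 2643 in astrocyte-like wells, and 606189 counts, against 526669. The part of this depth in the shares was not tested.

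The number of members per well followed the same order. Wells of the Tfap2c and Emx1 cluster had a median of 6 of the 9 genes (0 to 9), astrocyte-like wells a median of 3 (0 to 6) and oligodendrocyte-like wells a median of 1 (0 to 3). At least 5 members were found in 32 wells, of which 23 belonged to the cluster and 9 to the astrocyte-like class. Those 32 wells came from 7 mice, 12 wells from antagomir mice and 20 from scrambled mice, and 29 of them had Nes counts. In astrocyte-like wells the mean share with at least 2 members was 79.1% ± 11.7 (SD over 8 mice). It was 75.2% when a member needed 10 counts and 81.1% when wells were thinned to 200000 counts. All 9 members were found in 3 wells, all of the cluster.

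**Figure D2:**
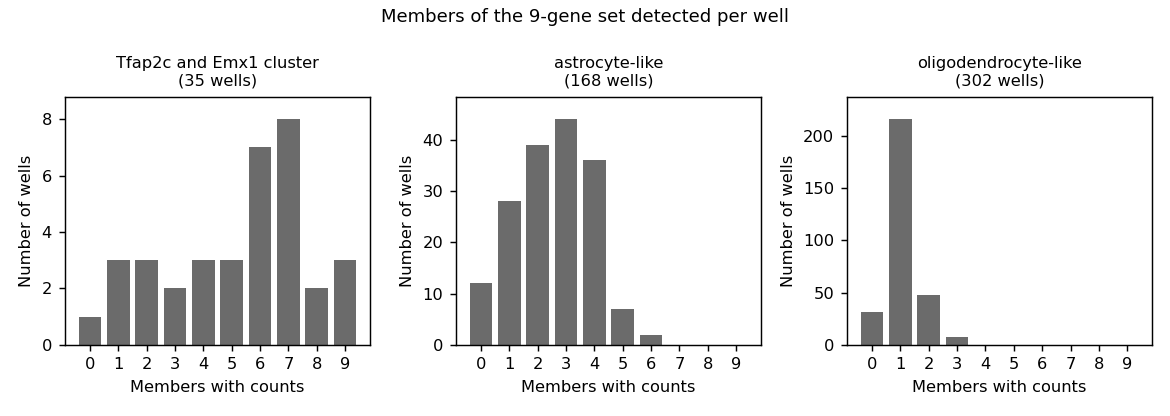
Number of the 9 genes with at least 1 count per well (x axis) against the number of wells (y axis, a separate scale per panel) in the Tfap2c and Emx1 cluster, astrocyte-like and oligodendrocyte-like wells. Most oligodendrocyte-like wells held 1 member, astrocyte-like wells up to 6, and the cluster spread from 0 to 9 with 23 of 35 wells at 5 or more.

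The Tfap2c and Emx1 cluster was not uniform. Its 23 wells with at least 5 members had counts of a median of 13 of 15 astrocyte or radial glia markers and 1 of 11 neuroblast markers. The 12 wells with fewer members had a median of 5 astrocyte markers and 5 neuroblast markers. Clu, which encodes clusterin, was found in 23 of 23 wells with at least 5 members and 2 of 12 with fewer, and the Notch target Hes5 in 16 and 3. Tfap2c was found in 8 of 23 wells and 2 of 12, and Emx1 in 12 and 5. Eomes, which marks intermediate progenitors, was found in 2 of 23 wells and 8 of 12, and the proliferation marker Mki67 in 1 and 5. Median detected genes were 3517 in the wells with at least 5 members and 4032 in the others. Antagomir mice gave 8 of the 23 wells and 8 of the 12, and scrambled mice gave 15 and 4; with a few such wells per mouse, this was not tested.

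Within the astrocyte-like class, the 66 wells with Nes counts were compared with the 102 without. Tnc was found in 16.7% of Nes-positive wells and 6.86% of Nes-negative wells, Thrsp in 83.3% and 74.5%, Tspan18 in 12.1% and 4.902%, and Ass1 in 19.7% and 11.8%. Hopx, Fabp7 and Itih3 differed by less, with 51.5% and 46.1% for Hopx, 66.7% and 61.8% for Fabp7 and 30.3% and 29.4% for Itih3. Summed levels of Itih3 (82.3 against 171 CPM) and Thrsp (1178.5 against 1291.5 CPM) were lower in Nes-positive wells. Those of the other members were higher there. Nes-positive wells had a median of 2813.5 detected genes and Nes-negative wells 2553.5. Over the 8 mice Tnc averaged 16.2% ± 11.9 in Nes-positive wells and 6.81% ± 9.93 in Nes-negative wells (SD). The same mice gave both kinds of wells, so these SDs are the spread between mice and not that of the difference within mice. Nes-rich wells took part in the choice of the genes, so no test is given.

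The astrocyte-like class itself joined 3 clusters, which differed in depth. A cluster of 87 wells had a median of 3042 detected genes and 3 members per well, a cluster of 45 wells 2466 genes and 2 members, and a cluster of 36 wells 881 genes and 1 member. A median of 11.03% of counts in the last cluster came from mitochondrial genes, against 2.88% in the largest. Hopx was among the 10 leading genes of that shallow cluster, ranked by mean CPM against other wells, although it had not been used for clustering. Its share of wells there was 38.9%, against 52.9% in the cluster of 87 wells and 46.7% in that of 45. In the shallow cluster 1 well held 21.5% of the Hopx counts. Of the 45 wells of the middle cluster, 31 came from antagomir mice and 14 from scrambled mice.

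Pairs of members were described by the share of wells with the second gene among wells with and without the first. In the Tfap2c and Emx1 cluster, 35 of the 36 pairs had a higher share of the second gene in wells with the first than without it. In the astrocyte-like class 28 of 36 did, with Lpar1 and Frzb present in only 3 and 1 of its 168 wells. In astrocyte-like wells 8 pairs ran the other way. After thinning the counts were 24 and 12, and when a gene needed 10 counts they were 21 and 7. The remaining pairs at 10 counts were all those with Lpar1. It reached 10 counts in 0 of the 168 wells, so they could not be compared. With the class set by a marker score, which took in wells of the Tfap2c and Emx1 cluster, 36 of 36 pairs had the higher share. Pairs of all other genes were not counted in the same way. These numbers therefore have no background and describe the set only, and the part of depth in them was not tested.

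In astrocyte-like wells, Hopx, Thrsp, Fabp7, Lpar1, Tspan18 and Ass1 had higher shares in Tnc-positive than in Tnc-negative wells, and Itih3 had a lower one. Frzb was found in 1 astrocyte-like well, which had no Tnc. All 18 Tnc-positive wells had Thrsp, against 75.3% of Tnc-negative wells, and 14 of 18 had Hopx (77.8%, against 44.7%). Itih3 was found in 1 of the 18 Tnc-positive wells (5.56%), against 32.7% of the 150 Tnc-negative wells. The pair was picked as the most extreme of the set. Tnc-positive wells had a median of 3331 detected genes, against 2553.5 in Tnc-negative wells. After thinning, Itih3 stood at 5.56% and 34.6%, and with 10 counts required it was found in 0 of 16 Tnc-positive wells. The class set by a marker score took in wells of the Tfap2c and Emx1 cluster. In it Itih3 stood at 38.2% of 34 Tnc-positive wells and 35.4% of Tnc-negative wells, so the low share was not seen in that mixture. In the Tfap2c and Emx1 cluster Itih3 ran the other way, with 75% of Tnc-positive wells against 47.4% of Tnc-negative wells.

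In the Tfap2c and Emx1 cluster the 20 Hopx-positive wells all had Thrsp and Fabp7. Frzb was found in 65% of these Hopx-positive wells, against 13.3% of the 15 Hopx-negative wells, and Itih3 in 80% against 33.3%. Hopx-positive wells had a median of 3604 detected genes and Hopx-negative wells 3830, and the part of depth was not tested. All 15 Frzb-positive wells had Thrsp and Fabp7, and 11 of them had Tnc. Lpar1 and Tnc were found together in 11 wells of the cluster, so that 73.3% of Lpar1-positive wells had Tnc, against 25% of Lpar1-negative wells. The exception among pairs of the cluster was Ass1 with Thrsp, with Ass1 in 62.1% of Thrsp-positive wells against 66.7% of Thrsp-negative wells, and with 10 counts required no pair ran that way.

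**Figure D3:**
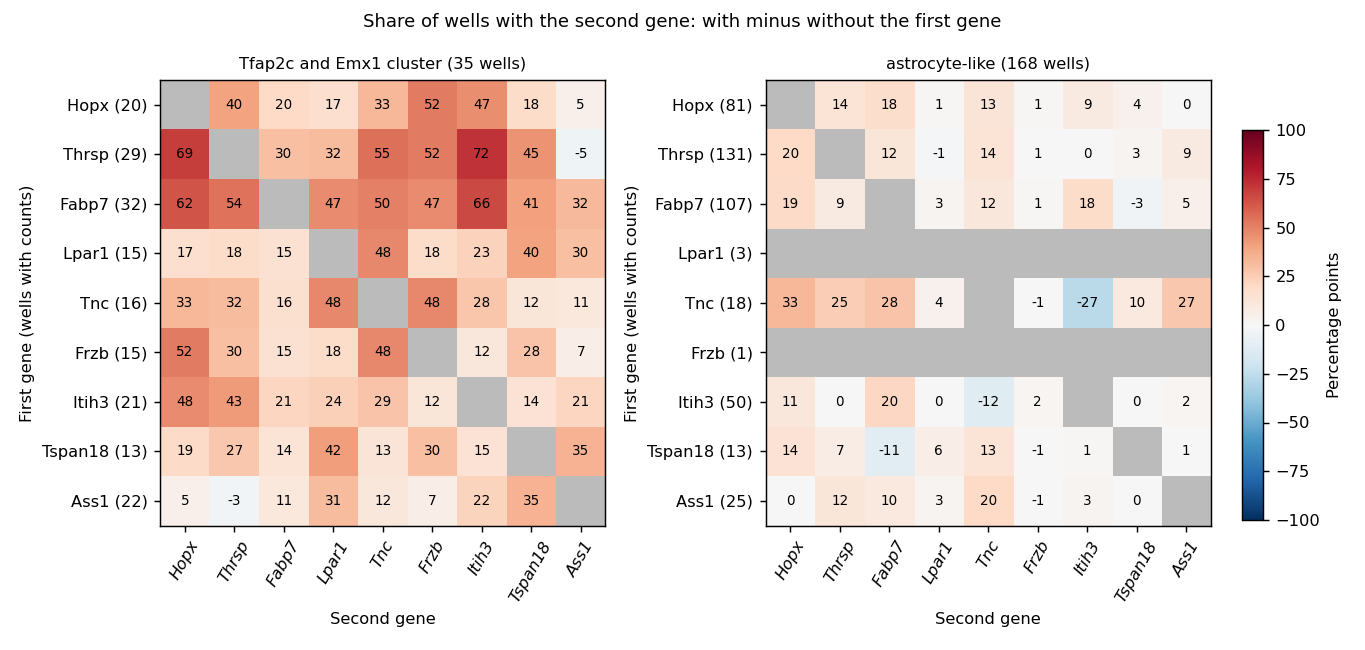
Difference in the share of wells with the second gene (columns) between wells with and without the first gene (rows, with the number of wells that have it), in percentage points, for the Tfap2c and Emx1 cluster and the astrocyte-like class. Grey marks the diagonal and first genes with fewer than 5 positive wells; the darkest blue cell is Itih3 in Tnc-positive astrocyte-like wells, 5.56% against 32.7%.

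Genes of the members' pathways were read from lists compiled for this set. Of 32 other reported dentate stem cell genes, 17 had a higher share of wells in the Tfap2c and Emx1 cluster than in the astrocyte-like class and 15 a lower one. Higher shares were seen for Nes (97.1% against 39.3%), Hes5 (54.3% against 27.4%) and vimentin, Vim (54.3% against 32.1%). Lower shares were seen for Id2 (51.4% against 89.3%), an inhibitor of helix-loop-helix factors, for Clu (71.4% against 98.2%) and for Hes1 (17.1% against 39.9%). Sparc was also higher, and Id3, Aldoc and Ntrk2 were also lower. Sox9, Sox2, Notch2, Gfap, Id4, Nr2e1, Ptprz1, Slc1a3, Cpe, Apoe, Mt1 and Mt3 had shares within 10 points of each other in the cluster and the class.

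The tetraspanin list, to which Tspan18 belongs, had 13 of 15 genes with a higher share in the Tfap2c and Emx1 cluster, and Cd9 stood at 88.6% against 44.6%. Tspan3, Tspan7, Tspan12, Tspan14, Tspan15 and Cd63 were also higher and Cd81 was lower. Of 13 genes of fatty acid binding and lipogenesis, 8 were higher and 5 lower. Acly, which makes cytosolic acetyl-CoA, stood at 71.4% against 33.3%, while the elongase Elovl2 stood at 22.9% against 61.3%; Fabp5, Mid1ip1, Acaca, Fasn and Scd2 were higher, and Srebf1 and Elovl5 lower. Among Wnt inhibitors measured beside Frzb, Dkk3 was found in 71.4% of the cluster's wells and 45.8% of astrocyte-like wells, Znrf3 in 62.9% and 67.3%, and 4 genes were higher and 3 lower. For Ass1, the arginine transporter gene Slc7a2 was found in 5.71% against 44.0%, with 8 genes of the list higher, Gatm among them, and 3 lower, Ddah1 among them. In the list of tenascin partners, 3 were higher and 6 lower, with the lectican Bcan at 68.6% against 92.3%, Itgav, Itgb8 and Ncan also lower and Ptprz1 higher. Hapln1, which links hyaluronan to proteoglycans, stood at 22.9% against 58.9%, in a list of hyaluronan and inter-alpha-trypsin genes with 2 higher and 6 lower. The lysophosphatidic acid list had 5 higher and 3 lower, with the phosphatase gene Plpp3 at 85.7% against 95.2%, and the list of Hopx partners had 5 higher and 2 lower, with Epc1 at 48.6% against 25.6%.

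For each member the genes with the most similar pattern over the 168 astrocyte-like wells were found by Pearson's r of log2(CPM + 1) among 7512 or 7513 genes with counts in at least 10% of these wells. Apart from Ass1 and its pseudogene Gm5424 (r = 0.86), the first-ranked gene for Thrsp was Mdh1 (0.47). Hopx was most like Ccdc74a (0.32), Fabp7 most like Acsbg1 (0.37), Tnc most like Spsb1 (0.41), Itih3 most like B3galt2 (0.40) and Tspan18 most like 1700071M16Rik (0.42). No member was among the 5 genes most like another member. Lpar1, Frzb and Tspan18, with counts in under 10% of these wells, were not among the genes compared and could not be. The wells share mice and differ in depth, and correlations of this size in sparse counts are weak.

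The question put to the treatment comparison was whether wells of antagomir mice held these genes at another level or in another share of wells. Counts were summed per mouse, and no member differed between treatments by edgeR's quasi-likelihood test with Benjamini-Hochberg adjustment over all genes tested, in all wells, astrocyte-like wells or oligodendrocyte-like wells. Over all wells 0% of 15447 genes passed an adjusted p of 0.05, with 280 genes (1.81%) at an unadjusted p under 0.05, 0 calls by limma and 10 by DESeq2. In astrocyte-like wells 0% of 10081 genes passed, with 157 (1.56%) unadjusted, 0 by limma and 8 by DESeq2. In oligodendrocyte-like wells 0% of 10778 passed, with 214 (1.99%) unadjusted, 0 by limma and 13 by DESeq2. None of the members was among the DESeq2 calls or under an unadjusted p of 0.05 in edgeR. In data simulated from these samples, the test recovered 45% of 4-fold changes among 14698 genes over all wells. It recovered 40% among 10270 genes in oligodendrocyte-like wells and 0% among 9269 genes in astrocyte-like wells. Of 2-fold changes it recovered 1%, 6% and 0% in that order. For single members in astrocyte-like wells the 95% intervals are the guide. A 4-fold change either way lay outside those of Hopx, Thrsp, Fabp7 and Itih3, and inside those of Tspan18 and Ass1. The log2 interval of Tnc, -5.67 to 1.61, held a 4-fold decrease but not a 4-fold increase.

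Hopx had counts in 53.3%, 43.6%, 42.9% and 27.8% of the astrocyte-like wells of antagomir mice 2, 4, 6 and 8, against 68.8%, 52.9%, 53.3% and 51.9% in scrambled mice 1, 3, 5 and 7. Antagomir mice 4, 6 and 8 lay below all scrambled mice, and antagomir mouse 2 lay level with scrambled mouse 5, so the groups overlapped. The means were 41.9% ± 10.6 in antagomir mice and 56.7% ± 8.0 in scrambled mice (SD, n = 4 each), a difference of -14.8 points with an exact two-sided permutation p of 0.114. The adjusted p was 1 over 10081 genes, the smallest unadjusted p that 4 against 4 mice can give is 0.0286, and no gene passed after adjustment. Over those genes 1.93% were under an unadjusted p of 0.05, with every antagomir mouse lower for 1.12% and every antagomir mouse higher for 0.813%, and none of the members was among them. The difference was -12.4 points on sort day 1, -17.3 on day 2, -12.9 in pool L5 and -16.7 in pool L6. Leaving out 1 mouse at a time gave -18.6 to -10.1 points. The value was -18.6 without antagomir mouse 2, -10.1 without antagomir mouse 8 and -10.8 without scrambled mouse 1, whose share stood apart from the other scrambled mice. Summed Hopx counts differed by less than their spread, with 37.1 ± 8.1 CPM in antagomir mice and 43.9 ± 10.7 CPM in scrambled mice and a log2 difference of -0.27 (SE 0.72, 95% interval -1.85 to 1.31).

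The difference in Hopx share kept its sign under the definitions of the class that were tried, and its p passed 0.05, unadjusted, in 2 of them, which share wells. With the Tfap2c and Emx1 cluster added, an alternative chosen after the data were seen, it was 40.0% ± 11.3 in antagomir mice and 59.5% ± 5.9 in scrambled mice (exact permutation p = 0.0286 unadjusted, 1 after adjustment, n = 4 each). Every antagomir mouse was then below every scrambled mouse, as was so for 1.42% of the 10081 genes by the same grouping. With the class set by a marker score instead of clusters it was 43.6% and 61.1% with the same p, and 1.87% of genes had every antagomir mouse lower. That score class of 192 wells held 31 of the 32 wells with at least 5 members, and 23 of those 32 belonged to the cluster. The 2 alternatives are therefore not independent. The exact p was 0.0571 without the cluster of 36 astrocyte-like wells, after thinning and at 1000 to 5000 detected genes, and 0.229 without the cluster of 45 wells and with 10 counts required. In the Tfap2c and Emx1 cluster alone, Hopx was found in 6 of 16 wells of antagomir mice and 14 of 19 wells of scrambled mice, or 32.5% ± 39.5 and 73.2% ± 23.6 over mice (SD, n = 4 each). Wells with under 5 members, which carried more neuroblast markers, were 8 of those 16 and 4 of those 19. Neuroblast markers, 4 of 11 present in at least 25% of the cluster's wells and Neurod2 at 0, summed to 125 to 3094 CPM in antagomir mice and 17.9 to 1429 CPM in scrambled mice. Astrocyte markers, 14 of 15 present in at least 25% of wells, summed to 1344 to 31344 CPM in antagomir mice and 12359 to 34617 CPM in scrambled mice. The part of these markers in the Hopx shares was not tested. Median detected genes in astrocyte-like wells were 2114 to 2982 in antagomir mice and 2419 to 2885.5 in scrambled mice. Mouse 8, with the lowest Hopx share, also had the lowest median, and the part of depth in the share was not tested.

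Fabp7 had counts in 73.3%, 43.6%, 76.2% and 50% of astrocyte-like wells in antagomir mice 2, 4, 6 and 8, and 75%, 82.4%, 80% and 59.3% in scrambled mice 1, 3, 5 and 7. Antagomir mice 4 and 8 were below all scrambled mice and the others were within their range. The means were 60.8% ± 16.4 and 74.2% ± 10.4 (exact permutation p = 0.2, n = 4 each). The difference was -13.4 points, with -7.65 without antagomir mouse 4 and -18.5 without antagomir mouse 6. Thrsp was found in 80%, 79.5%, 85.7% and 66.7% of wells of the antagomir mice, against 75%, 94.1%, 60% and 77.8% in scrambled mice, and the groups overlapped throughout. Its log2 difference was 0.18 (SE 0.30), with a 95% interval of -0.47 to 0.83, the narrowest of the members in this class.

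Itih3 had counts in 46.7%, 17.9%, 47.6% and 44.4% of astrocyte-like wells in antagomir mice 2, 4, 6 and 8, and in 37.5%, 17.6%, 20% and 22.2% in scrambled mice 1, 3, 5 and 7. Antagomir mice 2, 6 and 8 were above all scrambled mice and mouse 4 was near the lowest, so the groups overlapped. The means were 39.2% ± 14.2 in antagomir mice and 24.3% ± 9.0 in scrambled mice (exact permutation p = 0.114, n = 4 each), and the log2 difference of summed counts was 0.68 (SE 0.54). Mouse 4 also gave the most astrocyte-like wells, 39, with 18 of them in the cluster of 45 wells. Without mouse 4, the only antagomir mouse within the scrambled range, the difference was 21.9 points, against 14.8 with it, and its p is then fixed by that choice. Without the cluster of 45 wells the means were 37.4% in antagomir mice and 21.9% in scrambled mice, and the lowest antagomir mouse stood at 19.0%.

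Each combination of sort day and pool held 1 mouse of each treatment, and the shares in astrocyte-like wells were also compared within these 4 pairs, a comparison added after the data were seen. The antagomir mouse was lower in all 4 pairs for Hopx (-24.1 to -9.35 points) and for Fabp7 (-38.8 to -1.67 points), and higher in all 4 for Itih3 (0.302 to 27.6 points). The exact two-sided sign-flip p was 0.125 for each, the smallest that 4 pairs can give. The other members did not move one way in all 4 pairs, while 5.01% of the 10081 genes were lower and 4.03% higher in all 4. Over all wells, none of the 9 genes moved one way in all 4 pairs, beside 6.45% of 15447 genes lower and 3.9% higher.

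Tnc, Tspan18 and Ass1 were found in few astrocyte-like wells of each mouse, which leaves their differences with wide errors. Tnc was found in 13.3%, 15.4%, 14.3% and 0% of wells in antagomir mice and in 6.25%, 5.88%, 26.7% and 3.70% in scrambled mice, with a log2 difference of -2.03 (SE 1.67), or -0.93 without scrambled mouse 5. The groups overlapped, and the share and the summed level differed in sign; scrambled mouse 5 held 78.1 CPM of Tnc against at most 27.7 CPM in the other scrambled mice. Tspan18 was at 0 in antagomir mouse 8 and in scrambled mice 3, 5 and 7, and its log2 difference of 0.94 had an SE of 2.38. Without scrambled mouse 1 all remaining scrambled mice are at 0, so the value rests on that mouse. Ass1 stood at 12.1% ± 9.1 of wells in antagomir mice and 20.5% ± 9.5 in scrambled mice (exact permutation p = 0.257, n = 4 each). Lpar1 and Frzb had too few counts in astrocyte-like wells to be tested.

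**Figure D4:**
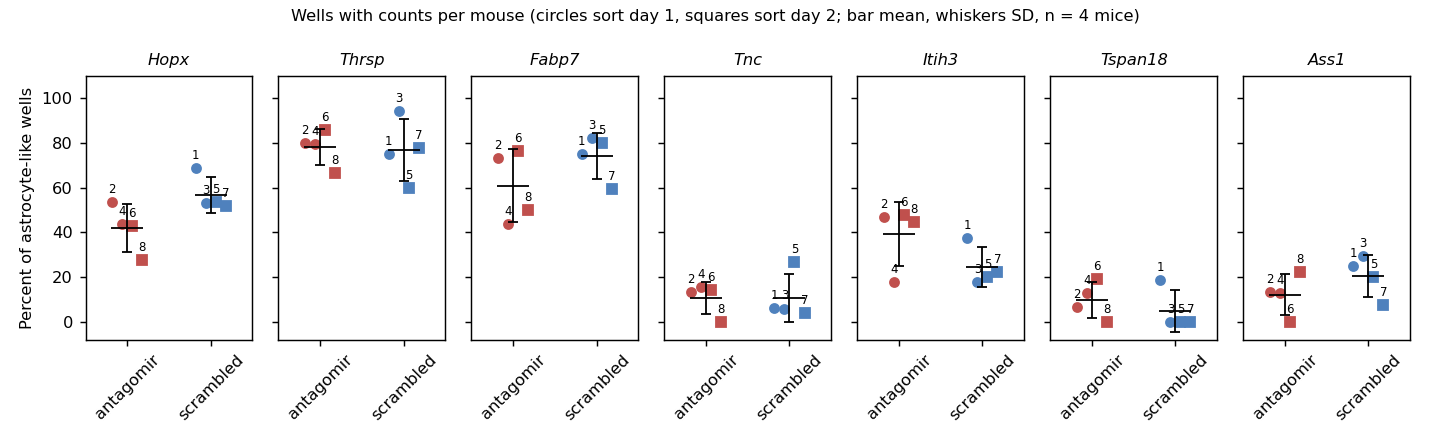
Percentage of astrocyte-like wells with at least 1 count of 7 members in each mouse (numbered points), antagomir mice left and scrambled mice right, with the mean and SD of 4 mice; circles are sort day 1 and squares sort day 2. Hopx averages 41.9% in antagomir mice and 56.7% in scrambled mice, and all 7 panels show overlapping groups.

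In all kept wells summed per mouse, Lpar1 stood at 257, 154, 198 and 215 CPM in antagomir mice 2, 4, 6 and 8, and at 188, 209, 206 and 276 CPM in scrambled mice 1, 3, 5 and 7. The groups overlapped, and the log2 difference was -0.12 (SE 0.23). In oligodendrocyte-like wells, which carry most Lpar1, it was 0.05 (SE 0.19), with a 95% interval of -0.38 to 0.48. Frzb over all wells stood at 0.241, 16.3, 14.3 and 0 CPM in antagomir mice and 20.04, 0.0161, 45.2 and 2.77 CPM in scrambled mice, with a log2 difference of -1.22 (SE 1.91) and overlapping groups, or -0.041 without scrambled mouse 5. The shares over all wells overlapped between the groups for all 9 genes, with exact permutation p from 0.2 (Ass1, n = 4 each) upward, while 2.12% of 15447 genes were under an unadjusted p of 0.05, 1.49% with every antagomir mouse lower and 0.628% with every antagomir mouse higher. The 9 genes' log2 differences over all wells had a median of -0.09 with 3 positive and 6 negative, beside a median of 0.004 over all genes tested. Such sums move with the share of astrocyte-like wells, which was 26.3% ± 11.7 in antagomir mice and 20.8% ± 6.9 in scrambled mice (exact permutation p = 0.514, n = 4 each); fewer cells of a type and less RNA per cell cannot be told apart in them.

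In oligodendrocyte-like wells 4 members could be tested. The log2 difference was 1.07 (SE 1.20) for Thrsp, -3.91 (SE 2.43) for Fabp7 and 0.48 (SE 1.31) for Itih3, from 27, 7 and 29 positive wells in that order. Of the pathway lists, 0 genes passed the adjusted p in any of the 3 comparisons, beside the 0% of all genes given above. In astrocyte-like wells, the 25 tested genes of the other stem cell list had a median log2 difference of -0.08 with 11 positive and 14 negative, the 12 tested genes of fatty acid binding and lipogenesis -0.08 with 4 and 8, and the 13 tested tetraspanins 0.09 with 9 and 4. All genes tested had a median of 0.01 in this class. The remaining lists had medians of 0.24 for lysophosphatidic acid signalling, -0.19 for Wnt inhibitors, -0.14 for tenascin partners, -0.28 for hyaluronan genes, 0.30 for arginine enzymes and -0.68 for Hopx partners, each over 2 to 7 tested genes.

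**Figure D5:**
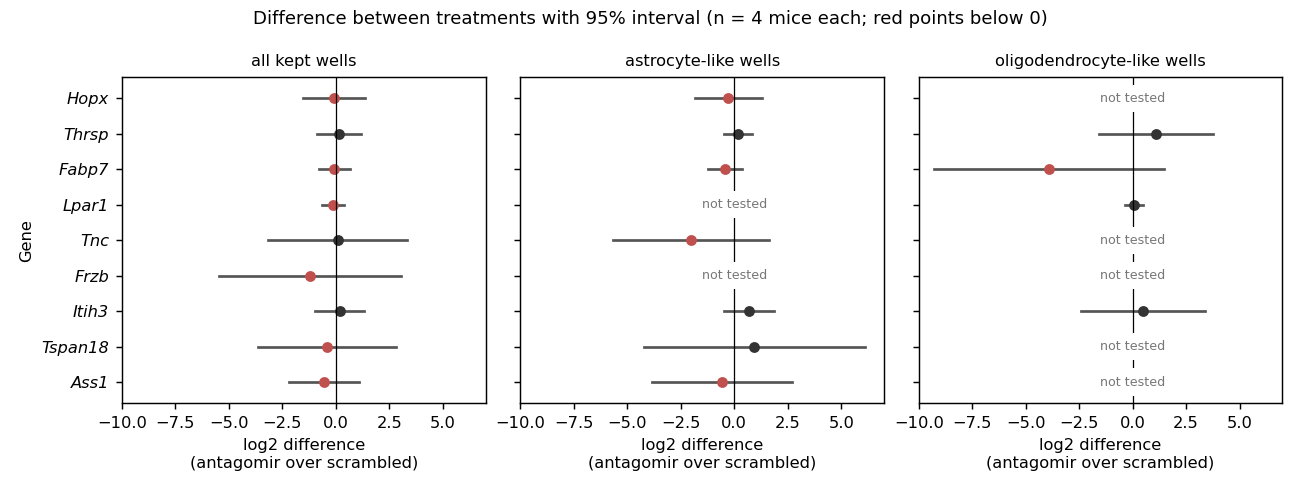
Log2 difference of summed counts, antagomir over scrambled, with the 95% interval from edgeR for each of the 9 genes in all kept, astrocyte-like and oligodendrocyte-like wells (4 mice a group). Every interval drawn includes 0, and the interval of Thrsp in astrocyte-like wells runs from -0.47 to 0.83.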

How the data were processed

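The authors deposited unnormalised read counts for each gene symbol in each well. A further table lists every well's mouse, treatment, sort day and project, and the pool was read from the project. Per the submitters' processing notes, FastQC, STAR 2.5.2, Subread featureCounts 1.5.1, Seurat 2.3.1 and build mm10 were used. Neither the annotation release nor the strand setting is given there. Reads carry no molecular identifiers, so intervals and floors (3 counts) cover counting error only.

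The mouse was the replicate. The labels' 2 samples per treatment carry no mouse number, and the deposited table of wells was used for treatment and mouse. Wells with 500 to 6000 detected genes were kept, no doublet caller was run, and wells were clustered without the 9 genes in scanpy 1.11.5 (2000 variable genes, 20 components, 15 neighbours, Leiden resolution 1, 12 clusters). Clusters were named from marker lists. Summed counts, 43996495 to 69191485 per mouse, were tested with edgeR 4.0.16 (filterByExpr, TMM, quasi-likelihood), with limma 3.58.1 and DESeq2 1.42.0 as alternatives, and shares of wells by exact permutation over the 70 splits of 8 mice. For thinning, wells were drawn down to 200000 counts, which left out 46 wells in all. The main fits had no block or covariate. The deposited well table puts 1 mouse of each treatment in each combination of sort day and pool, and these pairs served as replicate block in an alternative fit only. The deviations of paired mice correlated at -0.0032 to 0.147. The tests were tried on simulated data with known changes. Coordinates of genes and 3′ UTRs come from a GRCm38 annotation.

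The members, lists and tests were chosen with earlier results of these data known. The rule for named genes was all members, the listed genes with counts in at least 25% of astrocyte-like wells or past an adjusted p of 0.05, and, of the 5 genes most like each member, the first is printed, except for Lpar1 and Frzb. These had counts in 3 and 1 astrocyte-like wells. Some items are not reported here.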

Additional observations from a re-analysis of the deposited data

Results flagged for a closer look

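Among 70 sets of 4 mice (shares and CPM of the members by treatment, over all, astrocyte-like and oligodendrocyte-like wells, with at least 10 positive wells), 7 (10%) held 1 mouse whose gap to the nearest other mouse was large for the range of its group by Dixon's criterion, which chance gives in about 1 in 20 sets. In astrocyte-like wells, the Itih3 share of antagomir mouse 4 was 17.9%, against 44.4 to 47.6% in the other antagomir mice, and its Itih3 level was 56.8 CPM, against 219 to 252 CPM. The Hopx share of scrambled mouse 1 was 68.8% (others 51.9 to 53.3%), and the Tnc share of antagomir mouse 8 was 0% (others 13.3 to 15.4%). Over all wells, Fabp7 in scrambled mouse 5 stood at 212 CPM (others 107 to 119 CPM), Tnc in antagomir mouse 6 at 37.4 CPM (others 0.0174 to 5.45 CPM) and the Lpar1 share of scrambled mouse 1 at 35.5% (others 46.0 to 47.8%).

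Wells that the report's comparisons leave out also carried the genes. The 16 wells with over 6000 detected genes (9848 to 11673), 2 from each mouse, held a median of 8 of the 9 genes, and Hopx, Fabp7 and Lpar1 were found in all 16. They lay in 2 rows and 4 columns of the plates. Markers of many classes were present in at least 25% of these wells, namely all 15 astrocyte, 12 oligodendrocyte, 10 precursor, 11 neuroblast, 10 endothelial, 10 mural and 7 fibroblast markers. The sources used here do not say what these wells contained, so their values are not levels of a known cell type. Fabp7 in them averaged 208 ± 77.5 CPM in antagomir mice and 115 ± 31.4 CPM in scrambled mice (exact permutation p = 0.0857, n = 4 each), the lowest p of the 9 genes.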

How the results depend on the processing

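edgeR called 0 genes in the 3 treatment comparisons under every alternative run with it, leave-one-out fits included (0 to 0), while DESeq2 called 10 over all wells, 8 in astrocyte-like wells and 13 in oligodendrocyte-like wells, none a member. With the combination of sort day and pool as replicate block, edgeR again called 0 in each; the block changed no call. No member passed an adjusted threshold under any alternative, and the signs of uncalled differences often turned; the cause was not tested. The Hopx share in astrocyte-like wells went past its unadjusted threshold at -17.5 points by marker score and -19.5 with the Tfap2c and Emx1 cluster, 2 alternatives that share wells. Without antagomir mouse 2, the antagomir mouse within the scrambled range, it was -18.6, and its p is then fixed by that choice. The class fits without a limit on detected genes were not run, since wells outside the limits were not clustered. Lpar1 and Frzb were found in 3 and 1 astrocyte-like wells and could not be tested there; thinned to 200000 counts their shares were 2.03% and 0.676%.

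Log2 differences over all wells that turned sign were, within sort day 1, Hopx 0.44, Fabp7 0.066, Lpar1 0.021 and Tnc -1.13; within day 2, Thrsp -0.34; within pool L5, Thrsp -0.75, Lpar1 0.16 and Itih3 -0.60; and within pool L6, Hopx 0.60, Frzb 2.45, Tspan18 3.50 and Ass1 1.30. With the block they were Thrsp -0.092, Tnc -1.09 and Tspan18 0.83, with sort day as a covariate Tnc -0.22, with pool as a covariate Frzb 0.10 and Tspan18 1.04, and by limma Tnc -0.0033 and Tspan18 0.0087. In astrocyte-like wells they were, by marker score, Thrsp -0.13, Itih3 -0.077 and Tspan18 -0.50; with the Tfap2c and Emx1 cluster, Thrsp -0.21, Itih3 -0.18 and Tspan18 -0.59; within day 1, Thrsp -0.078 and Itih3 -0.077; within L5, Thrsp -0.10; within L6, Hopx 0.023 and Ass1 0.95; without the cluster of 36 wells, Hopx 0.072; and without the cluster of 45 wells, Tspan18 -0.012. In oligodendrocyte-like wells they were, within L6, Thrsp -0.26 and Lpar1 -0.14; within day 2, Lpar1 -0.13; within L5, Itih3 -0.13; by limma, Lpar1 -0.12 and Itih3 -0.14; and with the block, Itih3 -0.83.

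Differences in shares of wells, in points, turned sign over all wells for Tspan18 with 10 counts required (-0.16) and Fabp7 at 1000 to 5000 genes (0.11). In astrocyte-like wells Thrsp and Tnc stood at -3.27 and -1.71 with 10 counts, -0.19 and -0.17 thinned, -7.68 and -2.80 at 1000 to 5000 genes, -3.37 and -4.75 by marker score, -6.16 and -4.81 with the Tfap2c and Emx1 cluster and -9.06 and -3.48 without the cluster of 36 wells. Tnc stood at -2.85 without the cluster of 45 wells, and Tspan18 at -0.75 by marker score and -1.27 with the Tfap2c and Emx1 cluster.

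Leaving out each mouse in turn, values that crossed 0 were as follows. The log2 difference over all wells ran from -0.66 to 0.15 for Hopx, -0.38 to 0.45 for Thrsp, -0.35 to 0.22 for Fabp7, -0.25 to 0.014 for Lpar1, -1.78 to 0.67 for Tnc, -0.16 to 0.55 for Itih3, -0.88 to 0.40 for Tspan18 and -1.11 to 0.085 for Ass1. It ran from -0.027 to 0.36 for Thrsp and -1.16 to 0.019 for Ass1 in astrocyte-like wells, and from -0.046 to 0.15 for Lpar1 and -0.27 to 0.90 for Itih3 in oligodendrocyte-like wells. Shares over all wells ran from -2.47 to 4.86 points for Thrsp, -2.64 to 0.84 for Fabp7, -0.16 to 2.41 for Tnc, -0.77 to 3.51 for Itih3 and -0.70 to 2.49 for Tspan18, and in astrocyte-like wells from -4.33 to 7.04 for Thrsp and -2.18 to 5.47 for Tnc. Without crossing 0, log2 differences moved over 1.5 times for Frzb over all wells (-1.89 to -0.041) and, in astrocyte-like wells, for Tnc (-2.46 to -0.93), Fabp7 (-0.68 to -0.20), Itih3 (0.43 to 1.07), Hopx (-0.42 to -0.18) and Tspan18 (0.50 to 11.4, the last with scrambled mice all at 0), and for Fabp7 (-10.8 to -3.47) and Thrsp (0.66 to 1.75) in oligodendrocyte-like wells.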
